A study of Mus musculus with 18 samples.

Results

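Sterol and fatty acid synthesis was examined as a set of 33 genes, chosen by name, among the 55453 gene names counted by RNA-Seq in the colonic epithelium of mice with colitis. The set held 7 genes of the mevalonate pathway, 11 of squalene and sterol ring synthesis, 6 that control sterol levels and 9 of fatty acid synthesis. In polypoid dysplasia (P) vs. non-dysplastic epithelium (ND), 10 members changed in mice fed 8 mg/kg folic acid (FA), of which 2 rose and 8 fell, while 19 changed in mice fed no FA, of which 15 rose and 4 fell. Over all genes tested, 28.2% changed at 8 mg/kg and 31.6% without FA, so the share of members at 8 mg/kg was close to that of all genes. The 19 became 11 when library 4 of the ND group fed no FA was left out. Over all genes, 5612 were then called, beside 6562 with every library. Acss2, which makes acetyl-CoA from acetate, and Stard4, a sterol transfer protein, were lower in P at both doses under each alternative at the adjusted p threshold. The malic enzyme gene Me1 was higher at both, but its call at 8 mg/kg was lost in 10 of 20 alternatives. Fasn and the desaturase gene Scd1 rose without FA, and neither passed the test at 8 mg/kg. Scd1 narrowly missed there (edgeR adjusted p = 0.0537) and was called in 7 of 20 alternatives, Fasn in 0. The difference between the doses did not pass in edgeR for any member. DESeq2 called it for 4, Fasn among them, beside 81 of all genes. No member passed edgeR's test between FA doses, in P or in ND. DESeq2 called 1 and 2 members there, among 17 and 313 of all genes.

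All mice were female Swiss Webster, received the carcinogen azoxymethane (AOM) at 7 weeks of age and had colitis induced by dextran sulfate sodium (DSS) from 9 weeks, in 4 cycles of 7 days at 2% DSS and 14 days of water. Chow held 2 mg/kg FA until 11 weeks of age, then 8 or 0 mg/kg for 16 weeks, and colons were taken at 27 weeks. Cells were cut by laser microdissection from fixed, embedded colon and 40 ng of RNA went into each library. The groups were 8P (8 mg/kg, polypoid dysplasia, n = 5), 0P (0 mg/kg, polypoid dysplasia, n = 4), 8ND (8 mg/kg, non-dysplastic epithelium, n = 5) and 0ND (0 mg/kg, non-dysplastic epithelium, n = 4). Every mouse thus carried AOM and DSS exposure, and no group without colitis or on basal chow was analysed here. The labels do not state which libraries came from separate mice, so the p-values measure the spread between these libraries.

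Cells build cholesterol from acetyl-CoA by way of mevalonate, farnesyl diphosphate, squalene and lanosterol, and they build fatty acids from the same acetyl-CoA through malonyl-CoA. The transcription factors SREBP-1 and SREBP-2, the products of Srebf1 and Srebf2, turn on most of these genes, SREBP-2 mainly those of sterol synthesis and SREBP-1c mainly those of fatty acid synthesis. When membrane sterol is low, the escort protein SCAP carries the SREBPs to the Golgi for cleavage, and INSIG proteins hold the complex in the endoplasmic reticulum when sterol is plentiful. In the intestinal epithelium both pathways supply membranes during the constant renewal of the crypts.

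Each library held 3500947 to 17048524 counts on genes, and all 33 members passed the count filter as did 20787 genes in all. The lowest count of any member in a library was 22. The summed level of 6 epithelial markers was 2471 to 3171 CPM (counts scaled to the size of the library) in 8P, 2815 to 3871 in 0P, 2678 to 3896 in 8ND and 3043 to 3960.0 in 0ND, and all 6 were detected in each group. Among the ND libraries, 8ND 1 and 8ND 2 lay nearest to P on the first principal component of all genes. Library 0ND 4 had the lowest mean level of 3 of the 4 role groups, all but sterol control, and results that change without it are given below. Reads of overlapping genes are uncertain. For Fdps and Tm7sf2 the other gene lies on the same strand, and for the others named here on the opposite strand, where reads could not be told apart because the strand setting of the counting is not stated. Such overlap covered 26.7% of the exon bases of Fdps, 25.5% of Mid1ip1, 18.3% of Fdft1, 13.2% of Scap and 12.1% each of Tm7sf2 and Hmgcs1. Reads shared between close copies, such as Acat2 and Acat3 or the Scd genes, are likewise uncertain.

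The promoters of these genes are where the SREBPs act, next to the helper factors NF-Y and Sp1. RefSeq (GRCm38.p6) gave promoter windows, from 250 bases before to 50 bases after the start, for 27 of the 33 members. The classical sterol regulatory element, searched as TCACNCCAC on both strands, was found in 1 member (3.7% of those with a window) against 1.44% of all genes with a window. The E-box CACGTG was found in 5 members (18.5%, against 8.09% of genes), the NF-Y box CCAAT in 22 (81.5%, against 41.1%) and the Sp1 box GGGCGG in 23 (85.2%, against 38.2%). No searched motif contains another, and a match is a run of letters only. The genes compared with were not matched to the members for expression or base content, so these shares are a description only. The 250 bases before the start are shown for 4 members, each 5′ to 3′ on the strand of the gene. They are Hmgcs1 (chr13:119690101-119690350, plus strand), the member with the sterol regulatory element, Hsd17b7 (chr1:169969206-169969455, minus strand) with an E-box, and Fasn (chr11:120824548-120824797, minus strand) and Acss2 (chr2:155517793-155518042, plus strand), the fatty acid synthesis members with the smallest p in 0P vs 0ND, in opposite directions. Capitals mark the letters of the sterol regulatory element, the E-box and the NF-Y box on either strand.
Hmgcs1: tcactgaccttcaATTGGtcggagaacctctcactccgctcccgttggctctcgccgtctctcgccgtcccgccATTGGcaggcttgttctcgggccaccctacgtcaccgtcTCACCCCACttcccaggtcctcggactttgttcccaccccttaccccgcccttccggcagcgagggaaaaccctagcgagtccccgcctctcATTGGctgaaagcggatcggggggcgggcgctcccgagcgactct
Hsd17b7: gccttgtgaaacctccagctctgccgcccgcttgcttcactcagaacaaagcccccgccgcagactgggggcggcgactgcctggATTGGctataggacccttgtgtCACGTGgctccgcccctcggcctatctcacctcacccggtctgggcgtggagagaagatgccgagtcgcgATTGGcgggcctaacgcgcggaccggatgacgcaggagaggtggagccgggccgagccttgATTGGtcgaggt
Fasn: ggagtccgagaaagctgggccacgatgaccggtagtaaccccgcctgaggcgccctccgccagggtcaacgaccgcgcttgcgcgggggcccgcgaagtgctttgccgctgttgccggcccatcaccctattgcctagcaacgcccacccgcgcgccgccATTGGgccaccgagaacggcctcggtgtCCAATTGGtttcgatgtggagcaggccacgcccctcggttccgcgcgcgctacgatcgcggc
Acss2: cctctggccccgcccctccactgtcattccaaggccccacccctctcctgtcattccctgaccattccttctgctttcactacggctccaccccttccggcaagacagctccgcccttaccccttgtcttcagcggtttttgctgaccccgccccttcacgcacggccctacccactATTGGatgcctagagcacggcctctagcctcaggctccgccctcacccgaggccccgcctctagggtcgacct
The Hmgcs1 window held the sterol regulatory element on the plus strand at base -137 from the start, with NF-Y box letters at -237, -176 and -45. In Hsd17b7 the E-box began at -143, and NF-Y box letters began at -165, -73 and -12. In Fasn, NF-Y box letters began at -90, -62 and -59. The matches at -62 and -59 lie on opposite strands and share bases in the stretch CCAATTGG. Acss2 held 1 NF-Y box, at -73. All distances are from the RefSeq start. GENCODE M21 places the starts of Acss2 and Hsd17b7 inside the printed windows. By those starts, the Acss2 box and the Hsd17b7 box at -12 lie within the gene.

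The question of what distinguishes dysplasia from the surrounding epithelium was addressed at each dose. In 8P vs 8ND, 10 of 33 members passed an adjusted p of 0.05, beside 28.2% of the 20787 genes tested, so the share of members called was close to that of all genes. Of these, 2 were higher (13.9% of all genes) and 8 lower (14.3%). In 0P vs 0ND, 19 of 33 passed, beside 31.6% of all genes, with 15 higher (15.9% of all genes) and 4 lower (15.7%). The median member changed by -0.26 on the log2 scale in 8P vs 8ND and by 0.27 in 0P vs 0ND, beside 0.00 and -0.03 over all tested genes. In 8P vs 8ND the libraries of the groups did not overlap for 5 members, 1 higher (8.26% of all genes) and 4 lower (8.94%). In 0P vs 0ND they did not overlap for 16 members, 13 higher (16.2% of all genes) and 3 lower (16.1%). The members called at both doses were Tm7sf2 and Me1, which were higher, and Stard4, Acss2 and Acly, which were lower. These 5 were 50% of the calls in 8P vs 8ND and 26.3% of those in 0P vs 0ND, and 9 members were called at neither dose. The like overlap over all genes was not counted, so these shares cannot be read as a trait of the members. The count in 0P vs 0ND fell to 11 without library 0ND 4, which lost Acat2, Acly, Cyp51, Fdft1, Insig2, Mvd, Nsdhl and Pmvk. Over all genes, 5612 were then called, beside 6562 in the full fit. The count in 8P vs 8ND was 5 without 8ND 1, 6 without 8ND 5 and 6 without 8P 4. Over all genes, 5501, 5070 and 5130 were called there, beside 5869 in the full fit. It was also 5 members with scaling by total counts (5517 of all genes), or with no filter on low counts (5114).

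**Figure D1:**
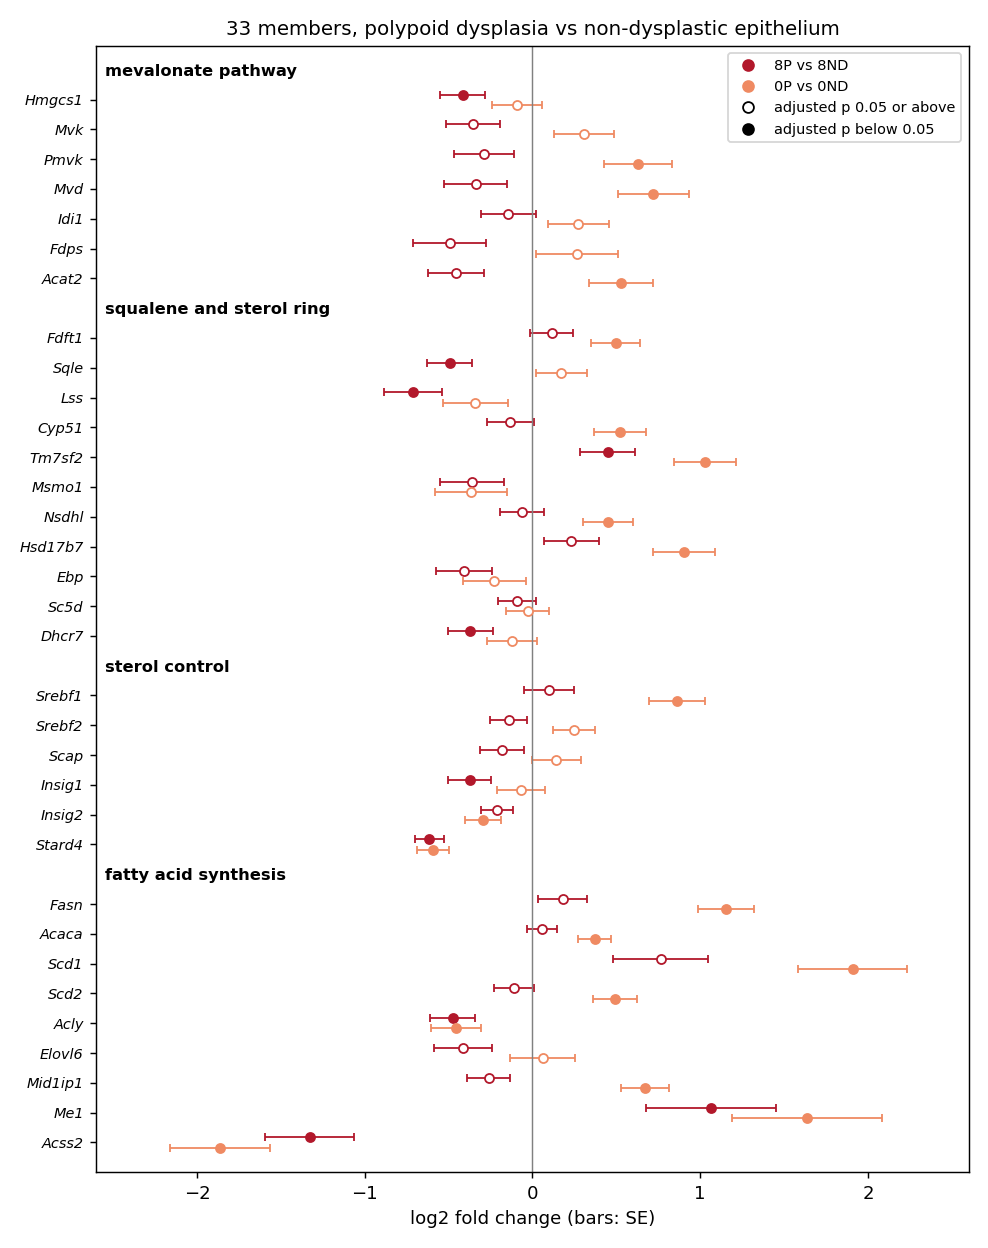
Log2 fold change in polypoid dysplasia vs. non-dysplastic epithelium (x axis, bars are the SE) of the 33 members by role (y axis), at 8 mg/kg FA (8P vs 8ND, dark red) and 0 mg/kg (0P vs 0ND, orange). Filled points passed an adjusted p of 0.05. The filled points number 10 at 8 mg/kg, with 2 right of zero, and 19 at 0 mg/kg, with 15 right of zero, and Acss2 lies farthest left at both doses.

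In the mevalonate pathway, 1 of 7 members was lower in 8P vs 8ND, and 3 of 7 were higher in 0P vs 0ND. Hmgcs1, which encodes the HMG-CoA synthase at the head of the pathway, had 174, 131, 206, 137 and 134 CPM in 8P, against 268, 192, 212, 185 and 187 CPM in 8ND (libraries 1 to n of each group, here and below). It was lower in 8P (log2 fold change -0.42 ± 0.13, adjusted p = 0.0257), with 8P 3 alone inside the 8ND range, and the call was lost in 9 of 20 alternatives. In 0P vs 0ND it had 176, 200.4, 177 and 176 CPM, against 218, 193, 207 and 160.1 CPM, and the groups overlapped (log2 fold change -0.09 ± 0.15, adjusted p = 0.684). Mvd, the decarboxylase that makes isopentenyl diphosphate, had 13.6, 12.2, 13.03 and 8.65 CPM in 0P, against 7.71, 7.94, 7.81 and 5.31 CPM in 0ND. Every 0P library was above every 0ND library (log2 fold change 0.72 ± 0.21, adjusted p = 0.0131). In 8P vs 8ND, Mvd had 9.64, 11.98, 8.29, 8.94 and 6.403 CPM, against 12.2, 11.5, 13.95, 8.28 and 10.9 CPM, with wide overlap (log2 fold change -0.34 ± 0.19, adjusted p = 0.191). Pmvk, the phosphomevalonate kinase gene, had 12.8, 12.9, 12.6 and 13.2 CPM in 0P, against 8.92, 8.99, 7.93 and 7.47 CPM in 0ND. The 0P libraries lay within a narrow band above all 0ND libraries (log2 fold change 0.63 ± 0.20, adjusted p = 0.0222). Acat2, the cytosolic thiolase gene whose product condenses acetyl-CoA, had 13.3, 17.1, 17.7 and 11.4 CPM in 0P, against 9.24, 12.9, 11.4 and 7.904 CPM in 0ND. It was higher in 0P (log2 fold change 0.53 ± 0.19, adjusted p = 0.0397), but 0P 4 lay below 0ND 2. The kinase gene Mvk, the isomerase gene Idi1 and Fdps, the farnesyl diphosphate synthase gene, did not pass at either dose, with log2 fold changes of -0.36 ± 0.16, -0.14 ± 0.16 and -0.49 ± 0.22 in 8P vs 8ND and 0.31 ± 0.18, 0.27 ± 0.18 and 0.27 ± 0.24 in 0P vs 0ND.

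In squalene and sterol ring synthesis, 4 of 11 members changed in 8P vs 8ND, 1 higher and 3 lower, and 5 of 11 changed in 0P vs 0ND, all higher. Lss, the gene of lanosterol synthase, which closes the ring, had 31.2, 32.9, 35.4, 17.2 and 22.5 CPM in 8P, against 43.97, 52.9, 45.8, 48.3 and 37.1 CPM in 8ND. All 8P libraries were below all 8ND libraries (log2 fold change -0.71 ± 0.17, adjusted p = 0.00443). In 0P vs 0ND, Lss had 29.6, 31.01, 28.9 and 26.6 CPM, against 38.6, 36.3, 45.5 and 26.6 CPM, and did not pass (log2 fold change -0.34 ± 0.19, adjusted p = 0.199). Sqle, the squalene epoxidase gene, had 50.3, 42.2, 58.6, 40.5 and 36.2 CPM in 8P, against 61.9, 67.8, 68.6, 64.3 and 57.9 CPM in 8ND. It was lower in 8P (log2 fold change -0.49 ± 0.13, adjusted p = 0.00931), and 8P 3 alone reached the 8ND range. Dhcr7, the reductase gene of a last step to cholesterol, had 51.5, 56.4, 64.6, 41.9 and 58.2 CPM in 8P, against 77.7, 69.2, 69.9, 68.9 and 66.8 CPM in 8ND, without overlap (log2 fold change -0.37 ± 0.13, adjusted p = 0.0447). The Dhcr7 call was lost in 13 of 20 alternatives, among them leaving out any single library except 8P 3. For Sqle and Dhcr7 the values in 0P vs 0ND were 0.17 ± 0.15 and -0.12 ± 0.15 on the log2 scale, and neither passed.

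Tm7sf2, a sterol reductase gene, was the ring member higher in P at both doses. It had 22.2, 22.2, 15.8, 16.96 and 12.99 CPM in 8P, against 13.1, 14.3, 12.8, 14.7 and 11.3 CPM in 8ND (log2 fold change 0.45 ± 0.16, adjusted p = 0.0458), with 8P 5 inside the 8ND range. This call was lost in 15 of 20 alternatives, among them leaving out any single 8ND library, limma-voom and the replicate block. It had 17.3, 22.1, 28.3 and 21.7 CPM in 0P, against 10.5, 13.05, 9.71 and 10.6 CPM in 0ND, without overlap (log2 fold change 1.03 ± 0.18, adjusted p = 0.000274). Hsd17b7, a ketosteroid reductase gene of the ring steps, had 23.6, 30.7, 31.8 and 27.7 CPM in 0P, against 16.8, 11.99, 18.9 and 12.9 CPM in 0ND. Each 0P library exceeded each 0ND library (log2 fold change 0.90 ± 0.18, adjusted p = 0.000917). In 8P vs 8ND, Hsd17b7 had 26.8, 22.4, 32.2, 18.2 and 23.1 CPM, against 24.5, 23.2, 18.1, 21.6 and 17.1 CPM, and the groups overlapped (log2 fold change 0.23 ± 0.16, adjusted p = 0.313). Fdft1, which encodes squalene synthase, had 67.3, 62.6, 60.8 and 74.2 CPM in 0P, against 44.7, 58.02, 47.7 and 37.9 CPM in 0ND, without overlap (log2 fold change 0.50 ± 0.14, adjusted p = 0.0126). Its exons overlap those of Ctsb on the opposite strand. Cyp51, the lanosterol demethylase gene, had 86.7, 106, 104 and 78.01 CPM in 0P, against 80.4, 61.02, 74.5 and 44.8 CPM in 0ND. It was higher in 0P (log2 fold change 0.52 ± 0.16, adjusted p = 0.0147), with 0P 4 below 0ND 1. Nsdhl, the sterol dehydrogenase gene of the decarboxylation step, was also higher in 0P vs 0ND (log2 fold change 0.45 ± 0.15, adjusted p = 0.0274). The oxidase gene Msmo1, the isomerase gene Ebp and the desaturase gene Sc5d passed at neither dose, with log2 fold changes from -0.41 ± 0.17 (Ebp) to -0.09 ± 0.11 (Sc5d) in 8P vs 8ND and from -0.37 ± 0.21 (Msmo1) to -0.03 ± 0.13 (Sc5d) in 0P vs 0ND.

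**Figure D2:**
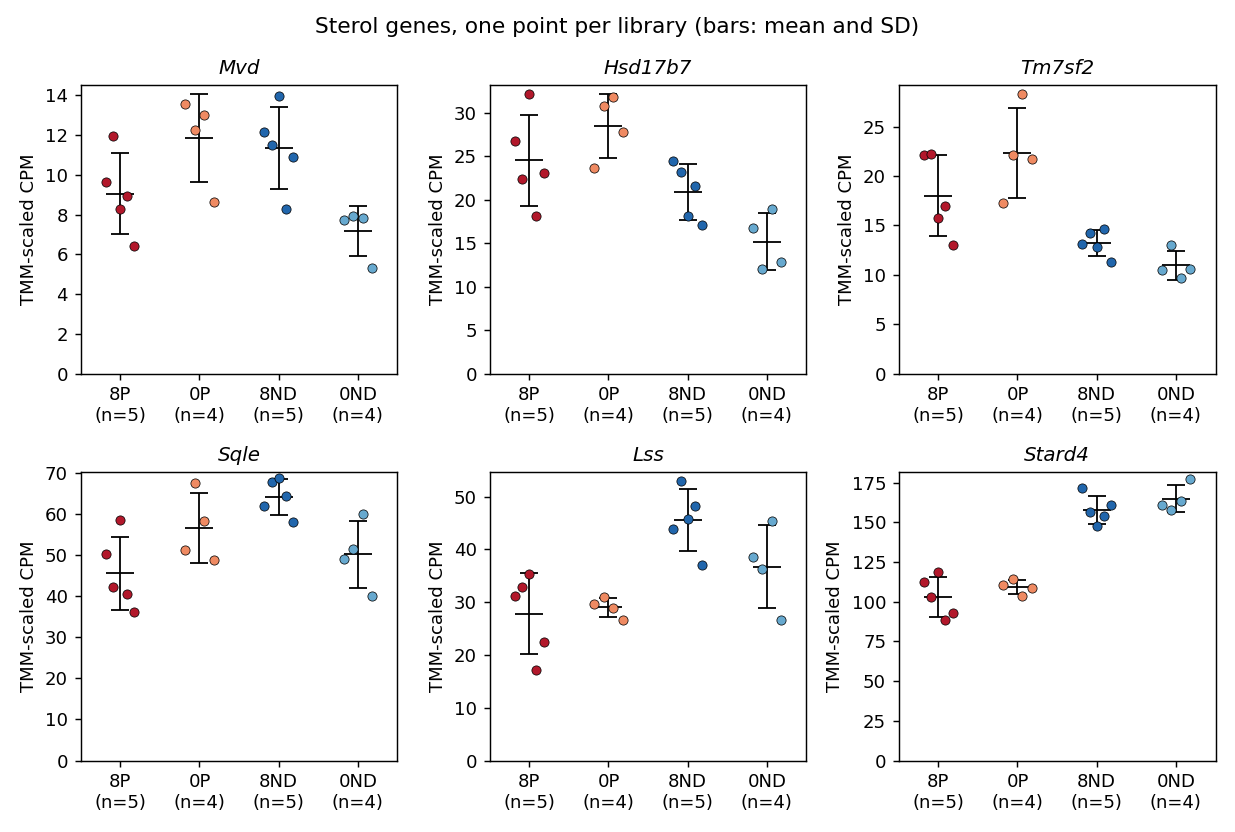
TMM-scaled CPM (y axis, from 0) of 6 sterol genes in the 18 libraries by group (x axis, 8P, 0P, 8ND and 0ND). Each point is a library, and bars give the mean and SD. Stard4 in both P groups lies below both ND groups, the 8P libraries of Lss lie below the 8ND libraries, and the 0P libraries of Mvd, Hsd17b7 and Tm7sf2 lie above the 0ND libraries.

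Among the 6 genes of sterol control, Insig1 and Stard4 were lower in 8P vs 8ND, while Insig2 and Stard4 were lower and Srebf1 higher in 0P vs 0ND. Stard4 (ENSMUSG00000024378.9), whose product moves sterol between membranes, had 112, 103, 119, 88.5 and 93.2 CPM in 8P, against 171, 156, 148, 154 and 161 CPM in 8ND (log2 fold change -0.62 ± 0.09, adjusted p = 4.8e-05). It had 110.5, 114, 104 and 109 CPM in 0P, against 161, 158, 163 and 177 CPM in 0ND (log2 fold change -0.59 ± 0.10, adjusted p = 0.000124). At each dose all P libraries were below all ND libraries, and the call was kept under each alternative setting tried at the adjusted p threshold. Srebf1 (ENSMUSG00000020538.15, chr11:60199089-60222581), the SREBP-1 gene, had 58.5, 70.6, 65.99 and 65.01 CPM in 0P, against 34.7, 40.9, 31.02 and 36.7 CPM in 0ND, without overlap (log2 fold change 0.86 ± 0.17, adjusted p = 0.000533). In 8P vs 8ND it had 52.05, 72.3, 38.8, 46.1 and 42.8 CPM, against 55.4, 44.1, 46.5, 36.6 and 51.8 CPM (log2 fold change 0.10 ± 0.15, adjusted p = 0.659). There 8P 2 stood above all 8ND libraries and the other 8P libraries lay among them. Insig1, itself an SREBP target that retains the SREBP complex, had 51.4, 46.2, 49.8, 40.2 and 36.3 CPM in 8P, against 73.6, 43.5, 56.2, 53.7 and 63.6 CPM in 8ND. It was lower in 8P (log2 fold change -0.38 ± 0.13, adjusted p = 0.0352), and 8ND 2 lay among the 8P libraries, and the call was lost in 10 of 20 alternatives. Insig2, its paralogue, had 22.98, 23.01, 22.9 and 24.9 CPM in 0P, against 26.6, 30.9, 29.1 and 28.7 CPM in 0ND, without overlap (log2 fold change -0.29 ± 0.11, adjusted p = 0.0405). The Insig2 call was lost in 13 of 17 alternatives, among them other scalings, DESeq2 and leaving out most single libraries. Srebf2, the SREBP-2 gene, and the escort gene Scap passed at neither dose, with log2 fold changes of -0.14 ± 0.11 and -0.18 ± 0.13 in 8P vs 8ND and 0.25 ± 0.12 and 0.14 ± 0.15 in 0P vs 0ND.

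Of the 9 genes of fatty acid synthesis, 3 changed in 8P vs 8ND, 1 higher and 2 lower, and 8 changed in 0P vs 0ND, 6 higher and 2 lower. Fasn (ENSMUSG00000025153.9, chr11:120805846-120824547), which encodes fatty acid synthase, had 232, 292, 183, 265 and 159 CPM in 8P, against 217, 187, 208, 192 and 195 CPM in 8ND. The 8P libraries spread from below to above the 8ND range, 3 of them above it (log2 fold change 0.18 ± 0.15, adjusted p = 0.394). It had 243, 320.3, 375 and 375 CPM in 0P, against 143, 168, 134 and 145 CPM in 0ND, and every 0P library was higher (log2 fold change 1.15 ± 0.17, adjusted p = 3.66e-05). Scd1 (ENSMUSG00000037071.3, chr19:44394455-44407879), the stearoyl-CoA desaturase gene that makes oleate, had 233, 198, 113, 158 and 129 CPM in 8P, against 118, 74.7, 131, 81.4 and 83.9 CPM in 8ND. With 8P 3 and 8P 5 inside the 8ND range it narrowly missed the threshold (log2 fold change 0.76 ± 0.28, adjusted p = 0.0537). Scd1 was called in 7 of 20 alternatives there, among them DESeq2 and limma-voom. It had 136, 227, 223 and 221 CPM in 0P, against 92.8, 40.7, 53.2 and 26.9 CPM in 0ND, without overlap (log2 fold change 1.91 ± 0.33, adjusted p = 0.000275). This was the largest rise of a member in either comparison. Mid1ip1, whose product activates acetyl-CoA carboxylase, had 52.5, 47.2, 51.2 and 63.9 CPM in 0P, against 27.8, 42.1, 32.3 and 33.1 CPM in 0ND, without overlap (log2 fold change 0.67 ± 0.14, adjusted p = 0.00119). The carboxylase gene Acaca and the desaturase gene Scd2 were also higher in 0P vs 0ND, by 0.37 ± 0.10 (adjusted p = 0.00654) and 0.49 ± 0.13 (adjusted p = 0.00759) on the log2 scale. In 8P vs 8ND the values of Acaca, Scd2 and Mid1ip1 were 0.06 ± 0.09, -0.11 ± 0.12 and -0.26 ± 0.13.

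Acss2, Acly and Me1, members that supply acetyl-CoA or NADPH, were called at both doses. Acss2 (ENSMUSG00000027605.18, chr2:155517948-155585724), the acetyl-CoA synthetase gene that uses acetate, had 27.97, 26.8, 37.9, 16.04 and 45.3 CPM in 8P, against 70.7, 58.6, 90.3, 59.8 and 107 CPM in 8ND (log2 fold change -1.33 ± 0.26, adjusted p = 0.00109). It had 43.7, 25.7, 25.4 and 18.2 CPM in 0P, against 80.9, 103, 103 and 123 CPM in 0ND (log2 fold change -1.86 ± 0.30, adjusted p = 0.000135). No P library reached an ND library of its dose, and this was the largest fall of a member in both comparisons. Acly, which encodes the citrate lyase that makes acetyl-CoA from citrate, had 130.4, 165, 121, 143 and 134 CPM in 8P, against 222, 149.8, 238, 158 and 195 CPM in 8ND (log2 fold change -0.48 ± 0.13, adjusted p = 0.012). It was also lower in 0P (log2 fold change -0.46 ± 0.15, adjusted p = 0.0251), and the groups overlapped by 1 P library at each dose, 8P 2 and 0P 4. Me1, the cytosolic malic enzyme gene that yields NADPH, had 18.5, 23.8, 28.9, 59.5 and 20.8 CPM in 8P, against 8.99, 15.5, 14.9, 17.1 and 16.2 CPM in 8ND (log2 fold change 1.06 ± 0.39, adjusted p = 0.0487). It had 35.7, 11.5, 14.8 and 18.5 CPM in 0P, against 11.02, 5.64, 6.28 and 2.38 CPM in 0ND (log2 fold change 1.64 ± 0.45, adjusted p = 0.00976). P libraries were above ND libraries at each dose, with 8P 4 far above the other 8P libraries. The call in 8P vs 8ND was lost without 8P 3, 8P 4 or any 8ND library, and the log2 fold change of Me1 was 0.66 without 8P 4. The elongase gene Elovl6 passed at neither dose (-0.41 ± 0.17 in 8P vs 8ND and 0.06 ± 0.19 in 0P vs 0ND on the log2 scale).

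**Figure D3:**
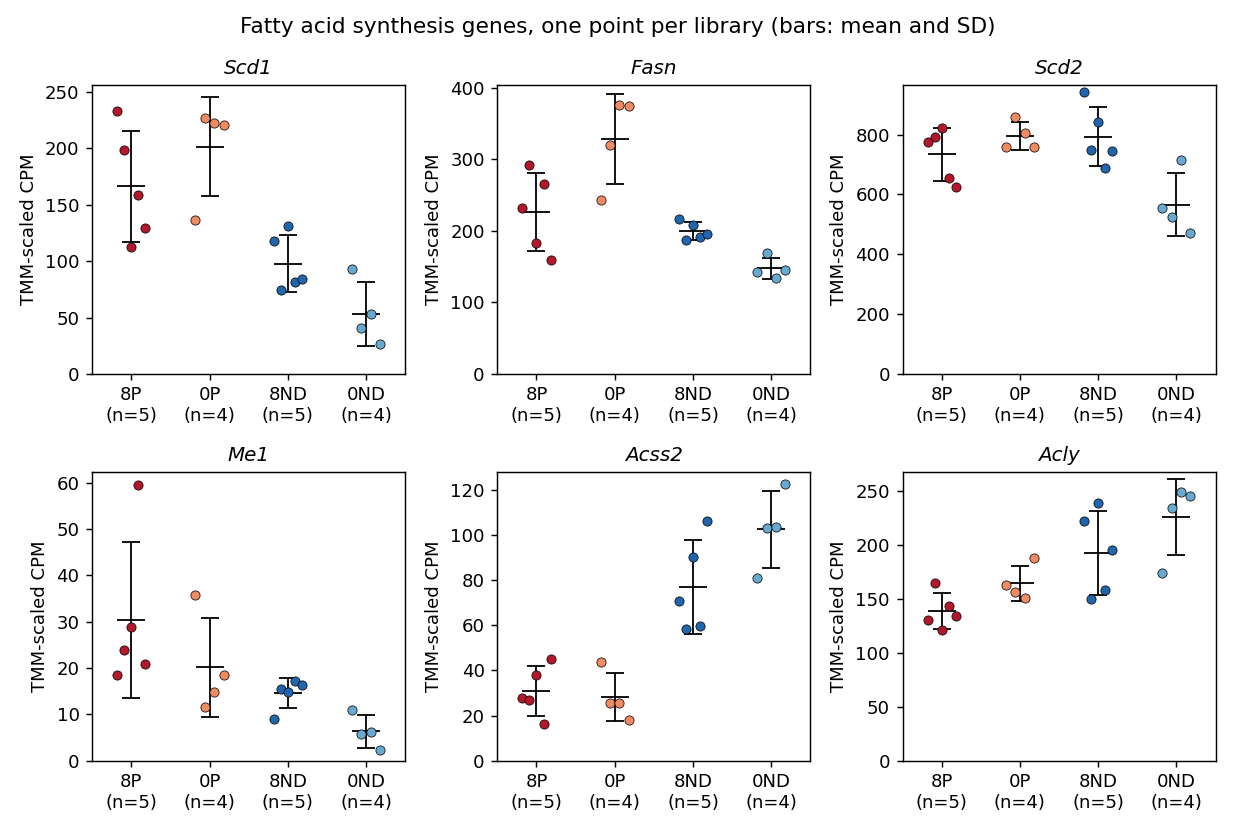
TMM-scaled CPM (y axis, from 0) of 6 fatty acid synthesis genes in the 18 libraries by group (x axis, 8P, 0P, 8ND and 0ND). Each point is a library, and bars give the mean and SD. Acss2 is lower in both P groups than in both ND groups, and the 0P libraries of Fasn, Scd1, Scd2 and Me1 all lie above the 0ND libraries.

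Markers of several cell types, but not of all those listed, also differed between P and ND. In these bulk samples fewer cells of a type and less RNA per cell cannot be told apart. The summed level of 6 goblet cell markers was 738 to 3752 CPM in 8P, against 11623 to 18186 in 8ND, and 1543 to 3389 in 0P, against 7384 to 9468 in 0ND. That of 6 absorptive colonocyte markers was 161 to 248 CPM in 8P, against 646 to 1095 in 8ND, and 125 to 443 in 0P, against 1129.8 to 2239 in 0ND. Neither list overlapped between P and ND at a dose. The 6 proliferation markers summed to 701 to 911 CPM in 8P, against 509.5 to 656 in 8ND, and 712 to 1143 in 0P, against 424 to 759 in 0ND. All markers of these 3 lists had counts in every group. The 6 fibroblast markers, all detected in each group, summed to 911 to 2167 CPM in 8P, against 1129 to 1280.2 in 8ND, and 1347 to 1762 in 0P, against 888 to 975 in 0ND. They overlapped at 8 mg/kg, where 1 of 6 was called, higher, while 4 were higher and 1 lower in 0P vs 0ND. The B and plasma cell markers (6 genes) summed to 167 to 766 CPM in 8P, against 1192 to 2387 in 8ND, and 271 to 390.0 in 0P, against 667 to 1462 in 0ND. Jchain alone held 137972 counts of this list over all libraries, and the next, Ighm, 5387. All 6 were below zero at both doses, with 3 called in 8P vs 8ND and 1 in 0P vs 0ND. For 6 smooth muscle markers, all called lower at both doses, the sums were 256 to 597 CPM in 8P, against 1004 to 1725 in 8ND, and 357 to 708 in 0P, against 999.6 to 2537 in 0ND. Of 5 neutrophil markers, 4 were called higher at each dose, with sums of 20.4 to 81.4 CPM in 8P, against 13.5 to 22.8 in 8ND, and 24.001 to 41.3 in 0P, against 10.6 to 18.3 in 0ND. All markers of these lists were detected in each group. The sums of 6 endothelium, 7 macrophage and 5 T cell markers overlapped between P and ND at each dose. In 8P vs 8ND, 2 endothelium markers were called, both lower, and 0 of the macrophage and T cell markers. In 0P vs 0ND, 1 endothelium marker was higher and 2 lower, 2 macrophage markers were higher and 1 T cell marker was lower. The sums of the 6 epithelial markers, given above, overlapped as well. Taken singly, 1 epithelial marker was called higher and 3 lower in 8P vs 8ND (median log2 fold change -0.36). In 0P vs 0ND 1 epithelial marker was higher and 1 lower (median -0.16). The 7 squamous and sebaceous markers summed to 11.1 to 25.3 CPM in 8P, against 8.57 to 15.1 in 8ND, and 16.5 to 54.8 in 0P, against 6.44 to 9.64 in 0ND, with 2 of the 7 at 0 in 0ND. Krt14 alone held 2416 counts of this list over all libraries, and of its 4 tested genes 1 was higher and 1 lower in 8P vs 8ND (median log2 fold change -0.47), and 1 higher and 2 lower in 0P vs 0ND (median -0.81). The part of these cell types in the results above was not tested. The 7 adipocyte markers summed to 4.28 to 6.67 CPM in 8P, against 8.34 to 15.5 in 8ND, and 4.86 to 6.86 in 0P, against 8.095 to 13.4 in 0ND. Fabp4 alone held 1327 counts of this list over all 18 libraries. Plin1, Cidec, Retn, Lep, Adipoq and Cfd had 87, 60, 16, 9, 8 and 6. Only 1 of the 7 genes passed the count filter, and it was called lower at both doses.

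The effect of FA dose was examined in P and in ND. In 8P vs 0P, 0 of 33 members passed in edgeR, as did 0% of all genes tested, and 8 members had an unadjusted p below 0.05, beside 10.1% of all genes. DESeq2 called 1 member, Mid1ip1, among 17 of all genes, and limma-voom called 0. The log2 fold change was below zero for 25 of the 33, with a median of -0.20 beside 0.01 over all genes. All 6 epithelial markers (median -0.25) and all 6 proliferation markers (median -0.19) were also below zero, with 2 of each at an unadjusted p below 0.05. So were all 6 smooth muscle markers (-0.48). The same held for 5 of 6 absorptive colonocyte (-0.86), B and plasma cell (-1.02), endothelium (-0.24) and fibroblast markers (-0.15). Above zero were all 5 neutrophil markers (0.24) and 4 of 5 T cell markers (0.40). The part of these cell types in the values of the members was not tested. The groups did not overlap for 2 members that were lower in 8P (0.89% of all genes) and for 0 that were higher (1.36%). Mid1ip1 had 38.4, 41.4, 32.7, 33.8 and 29.4 CPM in 8P, against 52.5, 47.2, 51.2 and 63.9 CPM in 0P, without overlap (log2 fold change -0.61 ± 0.13, adjusted p = 0.351). Fasn had 232, 292, 183, 265 and 159 CPM in 8P, against 243, 320.3, 375 and 375 CPM in 0P, with 8P 2 and 8P 4 above 0P 1 (log2 fold change -0.54 ± 0.15, adjusted p = 0.434). Cyp51 had 79.9, 62.6, 79.4, 74.6 and 61.6 CPM in 8P, against 86.7, 106, 104 and 78.01 CPM in 0P, and overlapped by 2 of the 8P libraries (log2 fold change -0.38 ± 0.15, adjusted p = 0.465). The 8 members below the unadjusted threshold became 3 without 0P 2 (8.59% of all genes), 4 without 8P 5 (7.55%) and 5 without either 0P 3 (8.03%) or 8P 4 (13.1%). They became 12 without 8P 2 (17%) and 9 without 0P 1 (11.3%) or 8P 1 (8.47%).

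In 8ND vs 0ND, 0 of 33 members passed in edgeR, beside 0.0481% of all genes (0.0289% higher and 0.0192% lower), but 17 had an unadjusted p below 0.05, beside 9.91% of all genes, and all 17 had higher levels in 8ND. DESeq2 called 2, Nsdhl and Scd2, among 313 of all genes, and limma-voom called 0. The log2 fold change was above zero for 29 of the 33, with a median of 0.32 beside 0.00 over all genes. By role, this was so for 7 of 7 mevalonate pathway members, 10 of 11 ring members, 5 of 6 sterol control members and 7 of 9 fatty acid synthesis members. The libraries of Mvk, Mvd, Fdps, Nsdhl and Fasn did not overlap between 8ND and 0ND, 5 members with higher levels in 8ND (2.15% of all genes), and 0 did so in the other direction (1.8%). Nsdhl had 30.4, 34.2, 37.2, 26.4 and 27.9 CPM in 8ND, against 22.8, 18.9, 26.05 and 16.7 CPM in 0ND, and the closest libraries nearly touched (log2 fold change 0.57 ± 0.14, adjusted p = 0.127). Scd2 had 942, 749, 843, 689.5 and 745 CPM in 8ND, against 555, 523, 715 and 470.3 CPM in 0ND, with 8ND 4 below 0ND 3 (log2 fold change 0.49 ± 0.13, adjusted p = 0.13). Mvd, at the levels given above, had a log2 fold change of 0.67 ± 0.20 (adjusted p = 0.205). The 17 members below the unadjusted threshold became 11 without 0ND 4 (7.32% of all genes) and 11 without 8ND 1 (8.93%). The summed goblet cell and fibroblast markers, higher in 8ND, and absorptive markers, lower in 8ND, did not overlap between these groups either, and their part in these values was not tested. Taken singly, 0 of these markers were called. Above zero were 5 of 6 goblet, 4 of 6 fibroblast and 1 of 6 absorptive markers.

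**Figure D4:**
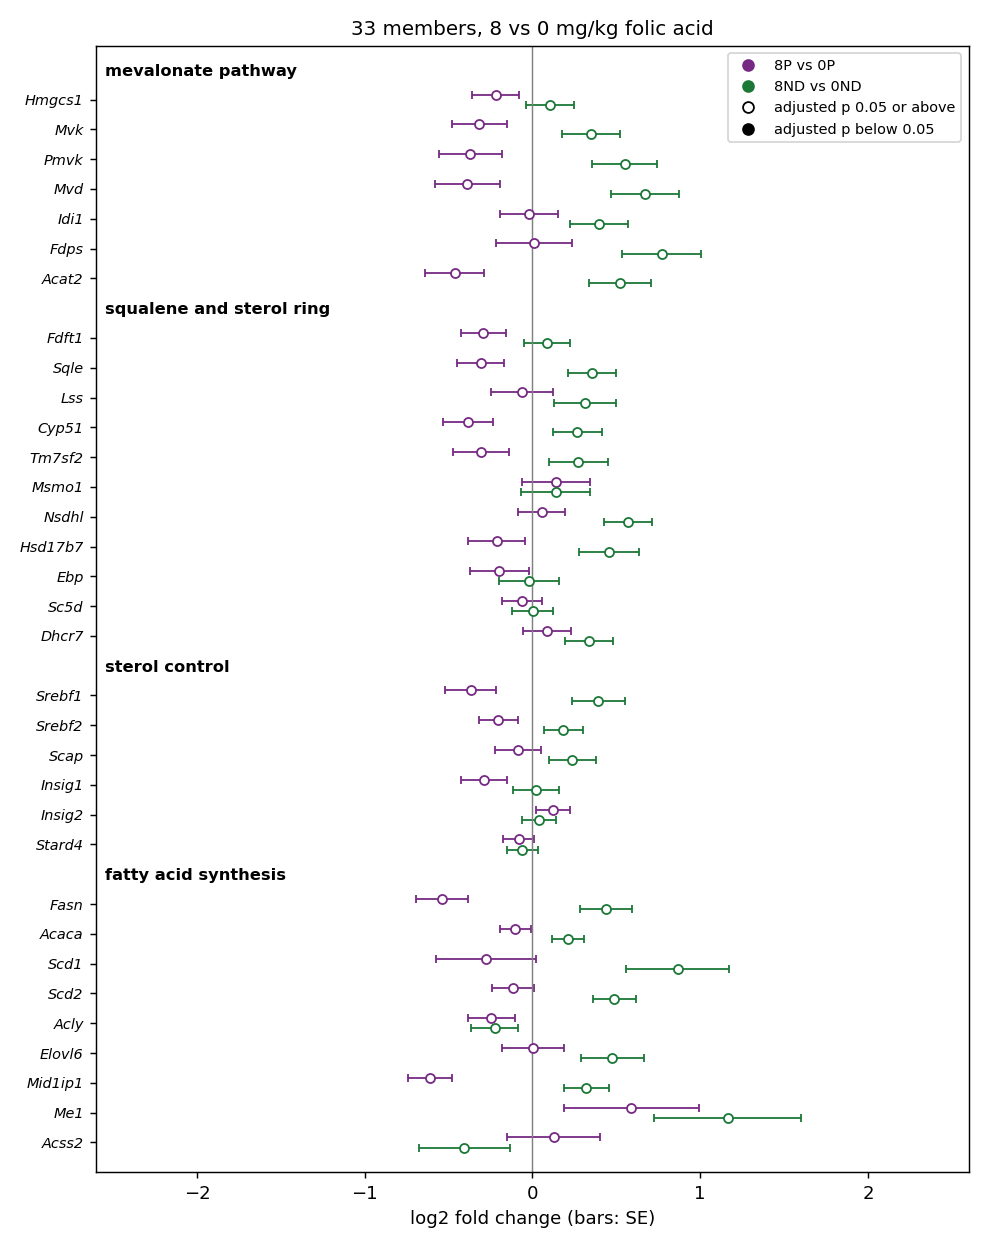
Log2 fold change between 8 and 0 mg/kg FA (x axis, bars are the SE) of the 33 members by role (y axis), in polypoid dysplasia (8P vs 0P, purple) and in non-dysplastic epithelium (8ND vs 0ND, green). All points are open because 0 passed an adjusted p of 0.05 in edgeR. In 8ND vs 0ND 29 points lie right of zero, and in 8P vs 0P 25 lie left of it.

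The effect of dysplasia at 8 mg/kg was set against that at 0 mg/kg by an interaction term, which equals the effect of dose in P minus that in ND. The comparisons above share their groups with it, so their directions are not separate evidence. In edgeR 0 of 33 members passed, as did 0% of all genes, and 17 had an unadjusted p below 0.05, beside 10.4% of all genes. The term was below zero for 30 of the 33, with a median of -0.47 beside -0.01 over all genes. DESeq2 called 4 members, Mid1ip1, Fasn, Acat2 and Mvd, among 81 of all genes, and limma-voom called 0. The terms with the smallest p were -0.93 ± 0.19 for Mid1ip1 (adjusted p = 0.22), -0.98 ± 0.22 for Fasn (0.223), -0.99 ± 0.26 for Acat2 (0.305), -1.06 ± 0.28 for Mvd (0.308) and -0.76 ± 0.22 for Srebf1 (0.313). Leaving out single libraries left 14 to 20 members below the unadjusted threshold. It was 14 without 0ND 4 (8.48% of all genes) or 8P 5 (8.99%), and 20 without 8P 3 (7.53%). Stard4 and Acly, which fell in P at both doses, had terms of -0.02 ± 0.13 and -0.02 ± 0.20.

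The mean level of each role group, taken as log2(CPM + 0.5) relative to the mean of all libraries, was lowest on average in 0ND for the mevalonate, ring and fatty acid members. Mevalonate pathway members ranged from -0.30 to -0.02 in 8P, -0.08 to 0.27 in 0P, 0.08 to 0.42 in 8ND and -0.49 to -0.14 in 0ND. Fatty acid synthesis members ranged from -0.11 to 0.07 in 8P, 0.09 to 0.20 in 0P, -0.04 to 0.22 in 8ND and -0.51 to -0.17 in 0ND, where all 4 libraries lay below every library of the other groups. Acly and Acss2 went the other way, with their highest group means in 0ND (226 and 103 CPM). How often other sets of genes separate in this way was not examined. Ring members overlapped among all groups, and the 2 lowest sterol control values were both 8P. Per kb of exon, Scd2 was the highest member in every group, at 134 ± 16.3 CPM per kb in 8P, 146 ± 8.57 in 0P, 145 ± 18.2 in 8ND and 104 ± 19.3 in 0ND (mean ± SD). Fdps was the lowest, at 1.68 ± 0.49, 1.68 ± 0.377, 2.38 ± 0.479 and 1.38 ± 0.197 CPM per kb in the same groups. Me1 had the widest spread between libraries in 8P, 0P and 0ND, with coefficients of variation of 55.4%, 53.3% and 56.3%, beside medians over the members of 18.5%, 12.9% and 16.8%.

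**Figure D5:**
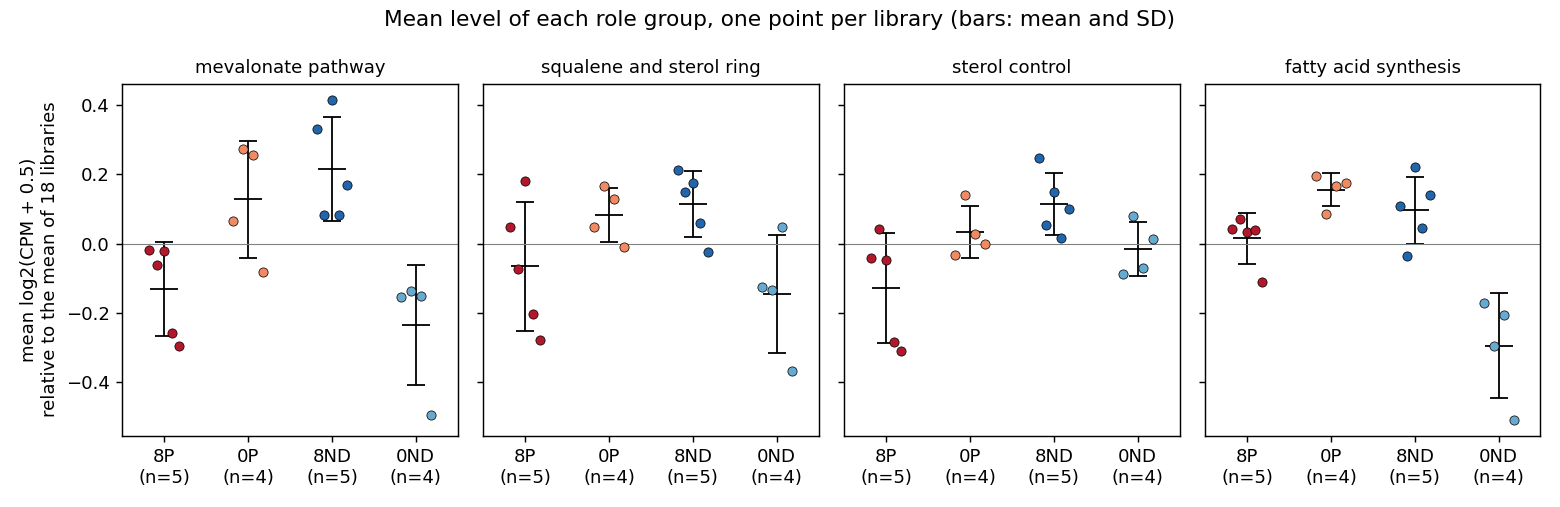
Mean log2(CPM + 0.5) of the members of each role group, relative to the mean of the 18 libraries (y axis, log2 units), by group (x axis, 8P, 0P, 8ND and 0ND). Each point is a library, and bars give the mean and SD. In the fatty acid panel the 4 0ND libraries lie below all others, and 0ND 4 is the lowest library in 3 of the 4 panels.

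Neighbouring steps outside the 33 were covered by 6 lists with 89 tested genes, of which 12 were higher and 16 lower in 8P vs 8ND, and 21 were higher and 17 lower in 0P vs 0ND, beside 28.2% and 31.6% of all genes called in either direction. Between doses 0 of the 89 passed in edgeR in either tissue, and 6 in 8P vs 0P and 17 in 8ND vs 0ND had an unadjusted p below 0.05 (10.1% and 9.91% of all genes). DESeq2 called 2 in 8ND vs 0ND, among 313 of all genes, and limma-voom called 0. In sterol storage, transfer and export, 4 of 15 were higher and 2 lower in 8P vs 8ND, and 5 were higher and 1 lower in 0P vs 0ND. Abca1, which exports cholesterol, averaged 184 ± 26.3 CPM in 8P and 91.3 ± 3.35 CPM in 8ND (log2 fold change 1.01 ± 0.13, adjusted p = 1.65e-05), and 185 ± 19.9 CPM in 0P and 79.2 ± 19.2 CPM in 0ND (log2 fold change 1.22 ± 0.14, adjusted p = 5.46e-06). Soat1, which esterifies cholesterol for storage, was higher in P by 0.70 ± 0.14 at 8 mg/kg and 0.96 ± 0.16 at 0 mg/kg on the log2 scale (adjusted p = 0.000867 and 0.000115). The sterol transfer gene Stard5 fell by 0.82 ± 0.16 and 0.77 ± 0.18 (adjusted p = 7e-04 and 0.00226).

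Among prenyl and sterol side branches, 1 of 10 was higher and 4 were lower in 8P vs 8ND, and 0 were higher and 3 lower in 0P vs 0ND. Pdss1, a subunit of the enzyme that makes the ubiquinone side chain, averaged 19.4 ± 4.903 CPM in 8P and 41.4 ± 4.25 CPM in 8ND (log2 fold change -1.10 ± 0.16, adjusted p = 5.07e-05), and 16.96 ± 2.76 CPM in 0P and 44.3 ± 2.75 CPM in 0ND (log2 fold change -1.39 ± 0.18, adjusted p = 1.09e-05). Its partner Pdss2 fell by 0.53 ± 0.12 and 0.95 ± 0.14, and the mitochondrial thiolase gene Acat1 by 0.86 ± 0.14 and 1.15 ± 0.15, on the log2 scale at 8 and 0 mg/kg (adjusted p = 0.00305, 3.95e-05, 0.000138 and 1.81e-05). Among 18 SREBP processing and lipid transcription factor genes, 1 was higher and 4 were lower in 8P vs 8ND, and 3 were higher and 6 lower in 0P vs 0ND. Nfyb, an NF-Y subunit gene, averaged 60.4 ± 7.73 CPM in 8P and 33.3 ± 3.91 CPM in 8ND (log2 fold change 0.85 ± 0.13, adjusted p = 7.35e-05), and 58.8 ± 11.3 CPM in 0P and 32.2 ± 3.04 CPM in 0ND (log2 fold change 0.87 ± 0.14, adjusted p = 0.000117). The MLX-interacting glucose sensor gene Mlxip fell by 0.71 ± 0.13 and 0.89 ± 0.14 (adjusted p = 0.000364 and 9.73e-05), Mlx by 0.86 ± 0.15 in 8P vs 8ND (adjusted p = 0.00025), and Erlin1, an endoplasmic reticulum protein gene that takes part in SREBP retention, by 1.05 ± 0.12 in 0P vs 0ND (adjusted p = 5.66e-06).

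In fatty acid elongation, desaturation and supply, 5 of 25 genes were higher and 2 lower in 8P vs 8ND, and 8 were higher and 3 lower in 0P vs 0ND. Scd3, a further desaturase gene, averaged 5.16 ± 1.51 CPM in 8P and 1.504 ± 0.495 CPM in 8ND (log2 fold change 1.76 ± 0.32, adjusted p = 0.000428), and 4.91 ± 1.95 CPM in 0P and 1.33 ± 0.359 CPM in 0ND (log2 fold change 1.89 ± 0.36, adjusted p = 0.000458). The elongation dehydratase gene Hacd2 rose by 0.84 ± 0.18 and 1.40 ± 0.20, and Acsl4, which activates polyunsaturated fatty acids, by 0.65 ± 0.17 and 1.36 ± 0.19 (adjusted p = 0.00155, 3.5e-05, 0.00715 and 2.95e-05). In acylglycerol synthesis, 0 of 14 genes were higher and 3 lower in 8P vs 8ND, and 3 were higher and 3 lower in 0P vs 0ND. Agpat4, an acyltransferase gene, averaged 10.4 ± 3.18 CPM in 8P and 34.2 ± 8.605 CPM in 8ND (log2 fold change -1.73 ± 0.21, adjusted p = 1.27e-05), and 14.4 ± 2.83 CPM in 0P and 46.8 ± 5.303 CPM in 0ND (log2 fold change -1.70 ± 0.23, adjusted p = 1.95e-05). The phosphatidate phosphatase gene Lpin3 was lower at both doses, with log2 fold changes of -0.62 ± 0.14 and -0.55 ± 0.15 (adjusted p = 0.00211 and 0.00884), the acyltransferase gene Gpat3 was lower in 8P vs 8ND (-1.32 ± 0.34, adjusted p = 0.00614) and Gpat4 higher in 0P vs 0ND (0.41 ± 0.11, adjusted p = 0.00908). Of 7 genes of NADPH supply, 1 was higher and 1 lower in 8P vs 8ND, and 2 were higher and 1 lower in 0P vs 0ND. The mitochondrial malic enzyme gene Me2 was lower in P, at 38.8 ± 6.79 CPM in 8P and 77.6 ± 15.5 CPM in 8ND (log2 fold change -1.004 ± 0.16, adjusted p = 0.000121), and 38.4 ± 8.004 CPM in 0P and 109 ± 17.1 CPM in 0ND (log2 fold change -1.501 ± 0.18, adjusted p = 6.36e-06). The pentose phosphate genes G6pdx and Pgd were higher in 0P vs 0ND (0.71 ± 0.17 and 0.38 ± 0.13, adjusted p = 0.0027 and 0.0258), and the isocitrate dehydrogenase gene Idh1 in 8P vs 8ND (0.86 ± 0.26, adjusted p = 0.0195).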

How the data were processed

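RNA-Seq was performed on 18 libraries of microdissected colonic epithelium. The authors deposited raw read counts per gene name, 1 table per library. Bowtie placed the reads on mm10 and HTSeq made the counts, per the labels. For both tools the version, and for HTSeq the handling of strand, is not given here. The kit was stranded and made for low RNA inputs. Counts held PCR copies, so precision rests on library spread, with a common biological coefficient of variation of 0.261. The 5 summary lines of each table were left out, and 22.0 to 40.7% of all reads fell on no gene and 40.1 to 62.2% had no unique alignment.

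The test was that of edgeR 4.0.16 under R 4.3.3 (filterByExpr with a minimum count of 10, TMM scaling, robust quasi-likelihood F test, Benjamini-Hochberg over 20787 genes, threshold 0.05). All 18 libraries entered 1 fit with a mean per group. The SE is the log2 fold change over the square root of F. Levels are TMM-scaled CPM, and sums over marker lists are CPM of all counts. The steps were tested on simulated data. DESeq2 1.42.0, limma 3.58.1 (voom), other scalings and filters, a 2-fold rule, the compared groups alone, a replicate block and leaving out libraries were the alternatives, and counting members at an unadjusted p with each library left out was added after the values were seen. Members, lists and tests were chosen with earlier results of these data known. Given in full were called members with up to 4 smallest p per role group and comparison, the 3 smallest p where none passed (5 for the interaction), and up to 3 called genes per further list. Exon lengths, gene positions and overlaps came from GENCODE M21, and promoters from RefSeq.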

Additional observations from a re-analysis of the deposited data

Results flagged for a closer look

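In 11 of 132 groups of member values, the highest or lowest library lay apart from the others of its group by Dixon's criterion, which chance reaches in about 1 of 20 groups. Low values were 9.91 CPM of Acat2 in 8ND 2 (others 15.2 to 16.6), 52.5 CPM of Idi1 and 5.31 CPM of Mvd in 0ND 4 (others 83.9 to 90.2 and 7.71 to 7.94), 8.99 CPM of Me1 in 8ND 1 (others 14.9 to 17.1) and 136 CPM of Scd1 in 0P 1 (others 221 to 227). High values were 77.7 CPM of Dhcr7 in 8ND 1 (others 66.8 to 69.9), 200.4 CPM of Hmgcs1 in 0P 2 (others 176 to 177), 24.9 CPM of Insig2 in 0P 4 (others 22.9 to 23), 59.5 CPM of Me1 in 8P 4 (others 18.5 to 28.9), 12.9 CPM of Mvk in 8ND 3 (others 9.08 to 10.1) and 43.8 CPM of Scap in 8P 2 (others 31.7 to 34.7). Libraries 0ND 4 and 8ND 1 each appeared for 2 genes.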

How the results depend on the processing

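Of the 19 members called in 0P vs 0ND, 11 were called under each of 16 alternatives at the adjusted p threshold (Tm7sf2, Hsd17b7, Srebf1, Stard4, Fasn, Acaca, Scd1, Scd2, Mid1ip1, Me1 and Acss2). Of the 10 in 8P vs 8ND, 4 were called under each of 19 (Lss, Stard4, Acly and Acss2). With a change of at least 2-fold also required, 5 members and 14 of the other pathway genes remained in 0P vs 0ND, and 2 and 6 in 8P vs 8ND. How many of all genes remained under this rule was not counted. With total count scaling, or with no filter on low counts, 5 members passed in 8P vs 8ND, and the cause was not tested. DESeq2 called 2 members and 2 other pathway genes in 8ND vs 0ND, 1 member in 8P vs 0P and 4 for the interaction. These were among 313, 17 and 81 of all genes. Leaving out 1 library gave 11 to 19 members (11 without 0ND 4) and 30 to 37 other pathway genes in 0P vs 0ND, 5 to 14 members (5 without 8ND 1, 6 without 8ND 5 or 8P 4) and 26 to 35 others in 8P vs 8ND, and 0 elsewhere. Without 8ND 1 and 8ND 2 together, 7 members passed in 8P vs 8ND, all lower, among 5167 of all genes. The sign turned for 3 values that did not pass, all in 8P vs 8ND, at -0.0027 for Acaca without 8ND 2 (up to 0.096 with other libraries left out), 0.0082 for Nsdhl without 8ND 3 (down to -0.12) and -0.064 for Srebf1 without 8P 2 (up to 0.18). The labels do not say whether equal numbers pair the libraries, and the values leave this undecided. Correlations of same-numbered deviations were 0.026 to 0.196 in 0P vs 0ND and -0.079 to 0.273 in 8P vs 8ND, and 3 of 4 and 2 of 5 libraries correlated best with their own number. With a replicate block, 16 members passed in 0P vs 0ND, 9 in 8P vs 8ND and 0 elsewhere. These were among 5999 of all genes in 0P vs 0ND and 5328 in 8P vs 8ND. Elsewhere the block gave 28 of all genes in 8ND vs 0ND, 3 in 8P vs 0P and 0 for the interaction. Of 1780 further values of single genes, 1614 kept direction and call, 144 lost the call and 19 gained it. No scaling moved the median of all genes by over 0.1. With 4 or 5 libraries per group, changes of low genes such as Fdps and Mvd rest on few counts.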

Other observations

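Within groups, levels of sterol members tended to vary together from library to library, while the mean correlation among fatty acid synthesis members was near that of all genes. Over the 18 libraries, after the group means were taken out, the mean correlation between pairs of the 33 members was 0.181, beside 0.00184 between pairs of all tested genes. It was 0.26 within the mevalonate pathway, 0.28 within ring synthesis, 0.28 within sterol control and 0.01 (range -0.78 to 0.64) within fatty acid synthesis. Srebf2 correlated with the 18 sterol enzyme genes at a median r of 0.52 (range -0.06 to 0.75), above 0.5 for 10 of them, and with the 9 fatty acid synthesis genes at a median of 0.12. Srebf1 correlated with the sterol enzymes at a median of -0.05 and with the fatty acid synthesis genes at a median of 0.20, with 0.68 for Fasn. Among the sterol enzymes, Sqle and Msmo1, chosen after the values were seen, had an r of 0.89. These are descriptions without a test, since all points share libraries, depth and scaling.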
